A study of Mus musculus with 18 samples.

Results

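The genes described here are the effector Bax, the BH3-only genes Bid, Bad, Bcl2l11, Bmf and Bbc3, and the apoptosome genes Cycs, Apaf1 and Casp9 of the mitochondrial cell death pathway. They were chosen by gene name in the count table and the TPM table, and all 9 were found in both among 55487 genes. RNA was sequenced from BV2 cells, a mouse microglial line immortalized with a retrovirus carrying v-raf and v-myc. Cells of 2 lines, labelled NC and BAK1-KD (written KD here), were left without oxyhemoglobin (0 h, called control) or given oxyhemoglobin for 12 h or 24 h, in 3 libraries per group and 18 in all. Oxyhemoglobin is the oxygen-carrying blood protein that is set free after a haemorrhage, and the label gives its dose as 10 mM, a high value for a protein whose unit could not be checked here. The cells had been plated 12 h before treatment, and no sample is labelled as untreated at 12 h or 24 h, and treatment cannot be told apart from time in culture. The labels do not say how the KD line was made, what NC stands for, or whether the lines are clones, and they do not say whether the 3 libraries of a group are separate cultures. The p-values below therefore reflect the spread among these libraries, which may be technical. Bak1, the gene that the KD label names and the partner effector of Bax, had 64 counts over the 18 libraries, 25 in NC and 39 in KD, and was too low to be tested. It was not lower in the libraries labelled KD, and every direction between lines below is one between libraries with those labels.

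In the mitochondrial pathway of apoptosis, BH3-only proteins sense stress and act on the BCL-2 family at the outer membrane of mitochondria. There they bind pro-survival members such as BCL-2, BCL-XL and MCL-1, or activate the effectors BAX and BAK, which make pores in the membrane. Cytochrome c then leaves the mitochondria and binds APAF1, the complex called the apoptosome recruits caspase-9, and caspase-9 activates the executioner caspases. BIM, the product of Bcl2l11, is known for its part in the death of blood and immune cells, and PUMA, the product of Bbc3, is a classical target of p53.

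Library totals ran from 4361313 to 6008810 counts, with 20896 to 22503 genes detected per library. CT010467.2 alone held 12.9 to 25.3% of all counts, and mitochondrially encoded genes held 0.605 to 2.37%. The second principal component, with 14.7% of the variance, had the library numbered 2 at the same end of all 6 groups. Of 12 microglia and macrophage markers all had a count, with a summed level of 532 to 945 CPM (counts scaled to the library total with TMM factors), but P2ry12 and Aif1 were close to absent with 8 and 43 counts in all. Among the erythroid markers, the globin genes Hbb-bt, Hbb-bs, Hba-a2 and Hba-a1 were at 0 in every library. In bulk RNA, fewer cells of a type and less RNA per cell cannot be told apart.

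In the main fit, which takes no account of library numbers, 3 of the 9 genes were called in at least 1 of 14 comparisons. The share of all tested genes called in at least 1 of them was not counted. The 12 h comparison over both lines alone called 25.2% of all tested genes, so the 3 of 9 is description only. Bmf fell with oxyhemoglobin, Cycs rose, and Bcl2l11 was lower in the libraries labelled KD. Their promoters are shown first because they are the regulatory sequence nearest to each change. The most upstream of 3 promoters is shown for Bmf and of 2 for Bcl2l11, and the 1 promoter of Cycs. Each run covers 250 bases before to 50 bases after a RefSeq start site on GRCm38.p6, 5' to 3' on the gene's strand. Bmf lies on the minus strand (promoter chr2:118549637-118549936), Cycs on the minus strand (chr6:50566520-50566819) and Bcl2l11 on the plus strand (chr2:128125788-128126087). Capitals mark the GC box (GGGCGG) in Bmf, the NRF1 core (GCATGCGC) and the cyclic AMP response element in its full (TGACGTCA) or partial (TGACGTNA) form in Cycs, and the FOXO motif (GTAAACA) and GC boxes in Bcl2l11, on either strand.
Bmf: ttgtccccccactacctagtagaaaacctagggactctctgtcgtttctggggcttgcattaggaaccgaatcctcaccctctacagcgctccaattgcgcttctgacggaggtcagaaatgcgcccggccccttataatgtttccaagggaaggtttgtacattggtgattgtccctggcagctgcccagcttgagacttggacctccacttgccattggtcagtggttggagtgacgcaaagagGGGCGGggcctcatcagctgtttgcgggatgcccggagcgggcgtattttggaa
Cycs: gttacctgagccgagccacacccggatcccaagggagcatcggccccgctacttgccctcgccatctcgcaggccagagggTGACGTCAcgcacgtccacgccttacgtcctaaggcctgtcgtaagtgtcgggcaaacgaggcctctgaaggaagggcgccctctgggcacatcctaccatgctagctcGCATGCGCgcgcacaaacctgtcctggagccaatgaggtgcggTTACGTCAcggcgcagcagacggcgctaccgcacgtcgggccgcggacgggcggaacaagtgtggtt
Bcl2l11: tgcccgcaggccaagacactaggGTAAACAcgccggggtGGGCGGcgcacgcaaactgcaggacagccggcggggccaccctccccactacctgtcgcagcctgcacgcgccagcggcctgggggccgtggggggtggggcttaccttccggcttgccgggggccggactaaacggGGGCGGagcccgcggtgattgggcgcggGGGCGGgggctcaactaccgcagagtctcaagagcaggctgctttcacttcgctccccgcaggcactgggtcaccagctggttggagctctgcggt

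On GRCm38, GENCODE M21 places Bmf (ENSMUSG00000040093) at chr2:118528757-118549687, Cycs (ENSMUSG00000063694) at chr6:50562563-50566538 and Bcl2l11 (ENSMUSG00000027381) at chr2:128126038-128162547. Bax lies at chr7:45461697-45466898, Bid at chr6:120891930-120916853, Bad at chr19:6941861-6951899, Bbc3 at chr7:16308393-16318205, Apaf1 at chr10:90989311-91082770 and Casp9 at chr4:141793612-141815976. RefSeq gave 15 promoters for the 9 genes, among 32851 in all, and these were searched on both strands. The Cycs promoter held the NRF1 core starting 60 bases before the start site, a full cyclic AMP response element at 169 bases and a partial one at 17 bases before it. The NRF1 core stood in 2.71% of all promoters, and among the 9 genes also in those of Bax and Apaf1. The full cyclic AMP response element stood in 1.79% of all promoters and, of the 9 genes, in that of Cycs, and the partial form, which includes it, in 2.93%. A FOXO motif stood in the shown Bcl2l11 promoter 227 bases before the start site, not in the other, and in 1 of 3 promoters of Bbc3, which makes 2 of the 15 against 3.65% of all promoters. The GC box was found in 12 of the 15 promoters, of the 3 of Bmf in the one shown, and in 35.7% of all promoters. Matches to the NF-kB motif, the AP-1 motif (TGANTCA), the E2F motif (TTTCCCGC) and the TATA box (TATAAA) were not found in these windows of the 9 genes, against 0.411%, 7.81%, 1.07% and 13.6% of all promoters. CCAAT stood in 7 of the 15 promoters and 37.4% of all, and the E-box CACGTG in 2 of the 15, of Bax and Bbc3, and 7.15% of all. A match describes letters and not a bound site.

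The levels of the 9 genes spanned a wide range. On the deposited TPM scale (a unit that divides each count by gene length before scaling), the mean over 18 libraries was 23.8 ± 2.74 (SD) for Casp9, the initiator caspase, and 22.3 ± 5.11 for Bax. Cycs followed at 15.7 ± 5.82 TPM, Bcl2l11 at 13.3 ± 2.57, Bbc3 at 11.6 ± 2.2 and Bid, whose protein is cut by caspase-8, at 5.14 ± 1.24. Bmf had 1.46 ± 0.896 TPM, Apaf1 0.800 ± 0.269 and Bad, a binder of BCL-2 and BCL-XL, 0.409 ± 0.152. In this order, Casp9 and Bax, Cycs and Bcl2l11, Bcl2l11 and Bbc3, and Bmf and Apaf1 differed by less than the larger SD of each pair. The deposited gene length behind these values was the summed length of all transcripts of a gene in 97.4% of the 20950 genes where this can be told from the merged exon length. Genes with many transcripts are therefore set low on that scale. On TPM recomputed with merged exon lengths, Bax was first at 85.7 ± 17.8, before Casp9 at 67.3 ± 8.29, Bcl2l11 at 44.2 ± 8.90, Bbc3 at 30.6 ± 5.99 and Cycs at 26.6 ± 9.21. Bid had 13.9 ± 3.13, Bmf 5.01 ± 3.24, Apaf1 3.31 ± 0.930 and Bad 2.2 ± 0.762 on this scale. Bbc3 and Cycs, and Bmf and Apaf1, differed there by less than the larger SD of each pair over 18 libraries, an SD that includes changes between groups. Within groups the order varied. In NC at control Bmf (8.81 to 9.64) lay above Apaf1 (1.99 to 4.20), and in KD at 24 h below it (1.64 to 2.49 against 2.96 to 4.68). Bbc3 lay above Cycs in NC at control (34.0 to 43.0 against 13.5 to 27.2), and their ranges overlapped in KD at 12 h. The pro-survival gene Mcl1 stood far above all 9, at 881 ± 162 TPM by merged length. Bcl2 had 36.2 ± 5.01 and Bcl2l1, which encodes BCL-XL, 28.2 ± 10.1. The changes below were tested on counts, which use no length.

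**Figure D1:**
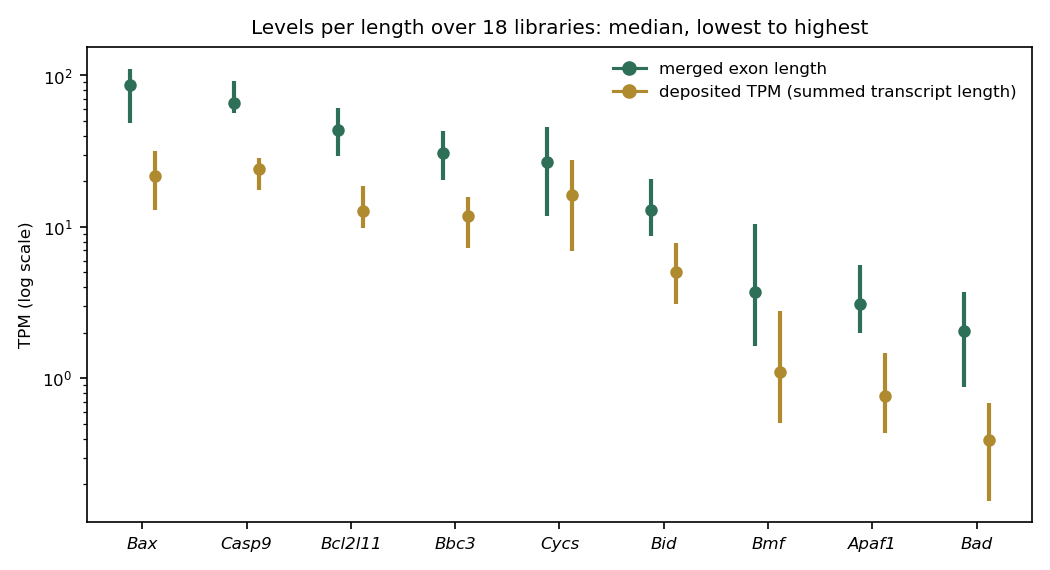
Median TPM (log scale) of each of the 9 genes over the 18 libraries, with a line from the lowest to the highest library, on the deposited scale and on the scale recomputed with merged exon lengths. Bax and Casp9 are the highest on both scales and Bad the lowest, and the recomputed value of Bad is several times its deposited one.

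Bmf, a BH3-only gene whose protein is held at the actin and myosin motor complexes of healthy cells, fell after oxyhemoglobin in both lines. In NC its levels were 18.8, 13.7 and 15.3 CPM at control, in the order of library numbers, against 8.10, 4.31 and 4.16 CPM at 12 h and then 9.62, 7.34 and 7.0 at 24 h. In KD they were 17.3, 14.0 and 19.3 CPM at control, then 4.32, 4.25 and 3.78 after 12 h and 3.15, 4.18 and 5.00 after 24 h. Every treated library lay below every control library, in each line. On the log2 scale the change at 12 h was -1.54 ± 0.27 (SE, 3 libraries per group) in NC (adjusted p = 4.15e-04) and -2.02 ± 0.28 in KD (adjusted p = 1.62e-05) (edgeR quasi-likelihood test, Benjamini-Hochberg adjusted over the 15996 genes tested). At 24 h it was -1.0 ± 0.27 in NC (adjusted p = 0.0200) and -2.04 ± 0.28 in KD (adjusted p = 2.56e-05). Averaged over both lines, Bmf fell by 1.78 ± 0.20 at 12 h (adjusted p = 3.09e-07) and by 1.52 ± 0.19 at 24 h (adjusted p = 4.01e-06). The call for NC at 24 h was lost without NC control library 1 (adjusted p = 0.0757), NC 24 h library 2 (0.0689) or NC 24 h library 3 (0.0838), and without the 6 libraries numbered 2 (0.0780). These values rest on 18 to 93 counts per library.

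The size of the Bmf change was not shown to differ between the lines. At 24 h the 3 KD libraries lay below the 3 NC libraries, with a difference of -0.96 ± 0.30 that missed the threshold (adjusted p = 0.120). With the library number as a block, which was not shown to pair the lines at 24 h, that difference was -0.96 (adjusted p = 0.0224). The interaction at 24 h, the KD change minus the NC change, was -1.04 ± 0.39 (adjusted p = 0.834), and at 12 h it was -0.49 ± 0.39 (adjusted p = 0.999). Between 12 h and 24 h the change was 0.54 ± 0.29 in NC (adjusted p = 0.433) and -0.02 ± 0.31 in KD (adjusted p = 0.990). At control, KD and NC differed by 0.08 ± 0.25 (adjusted p = 0.948).

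**Figure D2:**
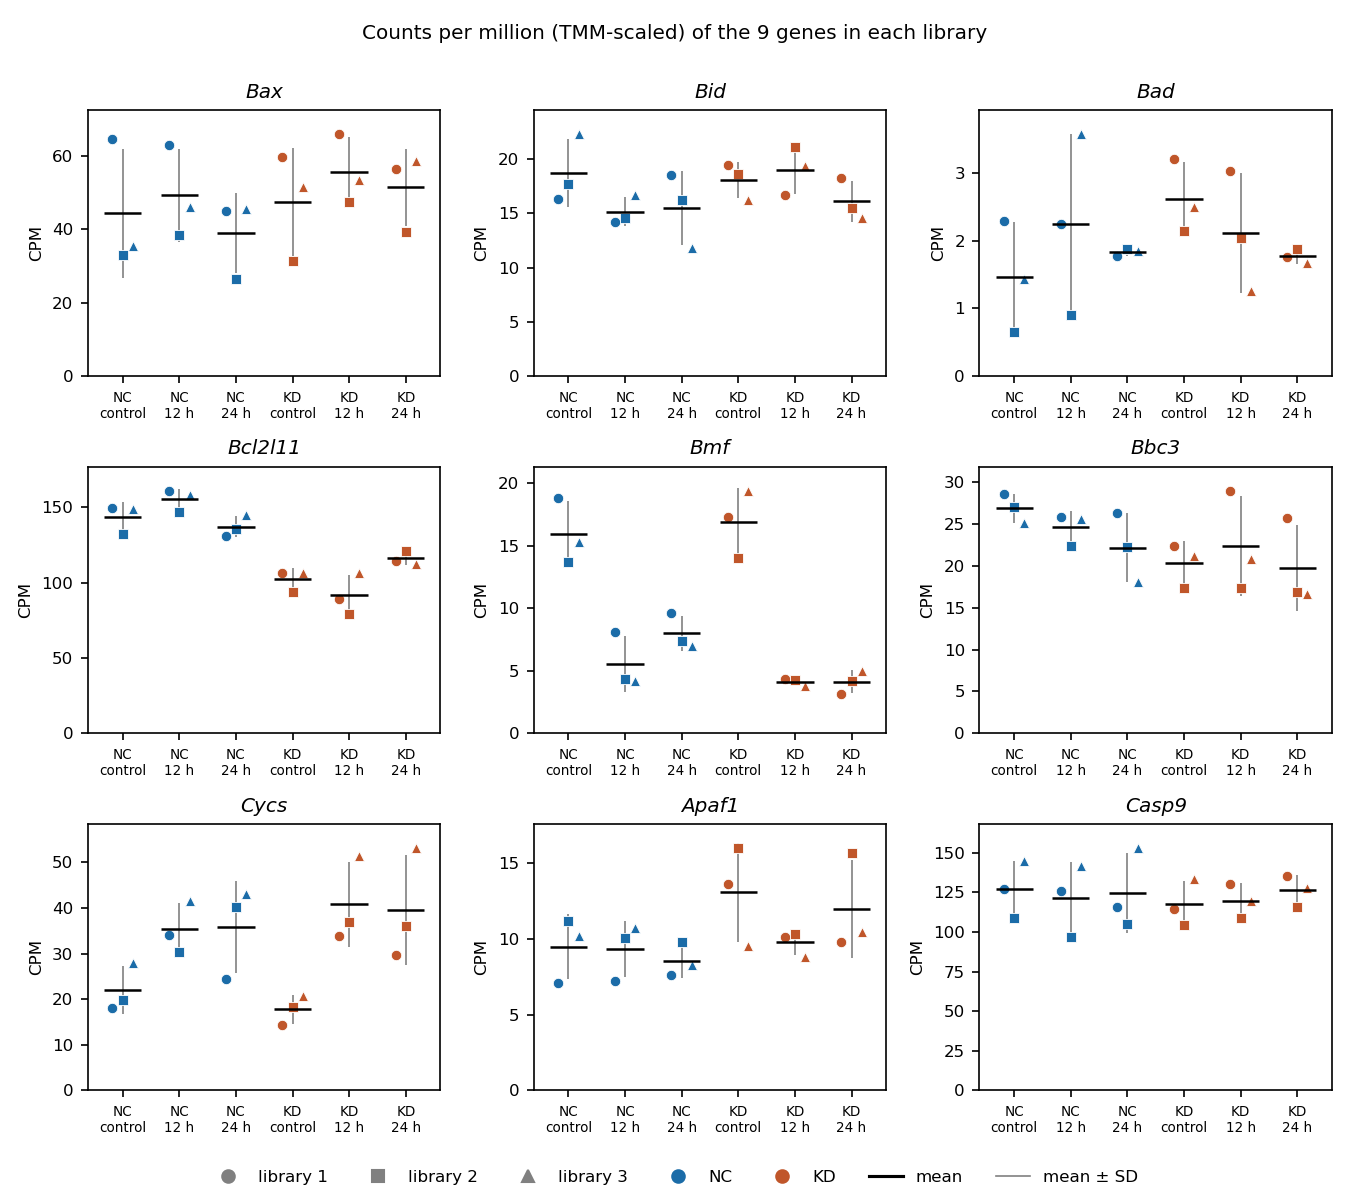
CPM of each of the 9 genes in every library, by line and time, with the library number as the marker, a bar at the group mean and a line for mean ± SD over 3 libraries. Bmf is lower in all 12 treated libraries than in all 6 controls, Bcl2l11 is lower in KD than in NC at each time, and Bax has its lowest value of each group in library 2.

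In the main fit Bcl2l11 was the 1 member of the 9 called between the labelled lines. With the library number as a block, Bax (0.23, adjusted p = 0.0330) and Bmf (-0.42, adjusted p = 0.0407) were also called over all times. The numbers were not shown to pair the lines at control and 24 h. Bcl2l11 levels in NC were 150, 132 and 149 CPM at control, then 161, 147 and 158 after 12 h and 131, 135 and 145 after 24 h. In KD they were 107, 93.8 and 106 CPM at control, then 89.4, 79.3 and 106 after 12 h and 115, 121 and 112 after 24 h. The KD libraries lay below the NC libraries at each of the 3 times with no overlap. Over all times the difference was -0.50 ± 0.08 (adjusted p = 2.61e-04), a level 0.708 times that of NC. It was -0.76 ± 0.14 at 12 h (adjusted p = 0.00539), -0.49 ± 0.14 at control (adjusted p = 0.0740) and -0.24 ± 0.14 at 24 h (adjusted p = 0.529). The call at 12 h was lost without KD 12 h library 2 (adjusted p = 0.0555), in a fit of the 2 groups alone (0.0603) and on log2 TPM with limma (0.158 to 0.183), while at control DESeq2 called the difference (adjusted p = 0.0131). With the library number as a block the difference at control was -0.49 (adjusted p = 4.61e-04). Oxyhemoglobin changes of Bcl2l11 did not pass the threshold, at 0.11 ± 0.14 and -0.06 ± 0.14 in NC and -0.16 ± 0.14 and 0.18 ± 0.14 in KD for 12 h and 24 h. The KD libraries at 24 h lay above the KD controls, and the NC libraries at 24 h below those at 12 h, without overlap. From 12 h to 24 h the change in KD was 0.34 ± 0.14 (adjusted p = 0.238), with the 24 h libraries above the 12 h libraries, and with the library number as a block it was 0.35 (adjusted p = 0.0131). The interactions of line and time were -0.27 ± 0.20 at 12 h and 0.25 ± 0.20 at 24 h (adjusted p = 0.999 and 1.00).

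The other BH3-only genes did not pass the threshold in any of the 14 comparisons. Bbc3 ran from 16.7 to 28.9 CPM over the 18 libraries, with changes over both lines of 0.00 ± 0.15 at 12 h and -0.16 ± 0.16 at 24 h. At control it was 28.6, 27.0 and 25.1 CPM in NC and 22.4, 17.4 and 21.2 in KD, groups that do not overlap, at a difference of -0.41 ± 0.22 (adjusted p = 0.482). For this and the other uncalled changes described as without overlap, the share of all tested genes that separate likewise was not counted. Such gaps are description only. Bid ran from 11.8 to 22.3 CPM and changed by -0.12 ± 0.15 at 12 h and -0.22 ± 0.15 at 24 h over both lines (adjusted p = 0.625 and 0.342). Of the exon bases of Bid, 17.7% overlap Bcl2l13 on the opposite strand, a gene with 16845 counts against 1558 for Bid. Bad had 4 to 18 counts per library, and with standard errors of 0.50 to 0.54 for the changes with time within a line, changes of that size were not detectable at this depth. Its KD libraries were at 3.20, 2.13 and 2.50 CPM at control and at 1.75, 1.88 and 1.67 at 24 h, groups that do not overlap (-0.54 ± 0.51, adjusted p = 0.608). Of its exon bases 20.5% overlap Gpr137 on the opposite strand, which had 738 counts against 180 for Bad. The sources used here do not give the strand setting of the counting, and Bid and Bad values may hold reads of these neighbours.

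Bax, the pore-forming effector, had 64.5, 33 and 35.5 CPM at control in NC, then 63.0, 38.4 and 46.2 after 12 h and 45.1, 26.4 and 45.5 after 24 h. In KD it had 59.6, 31.3 and 51.6 CPM at control, then 65.9, 47.3 and 53.4 after 12 h and 56.4, 39.3 and 58.6 after 24 h. The groups overlapped in every comparison of times and lines. Over both lines Bax changed by 0.19 ± 0.20 at 12 h (adjusted p = 0.547) and -0.03 ± 0.20 at 24 h (adjusted p = 0.946). KD was above NC by 0.23 ± 0.16 over all times (adjusted p = 0.449). With the library number as a block that difference was 0.23 (adjusted p = 0.0330). Much of the spread followed the library number: library 2 had the lowest Bax of its group in 6 of 6 groups, on average 0.58 lower on the log2 scale than the mean of the other two. Of the exon bases of Bax, 12.2% overlap Gm45808 on the same strand, a gene with 0 counts. The sources do not say how reads in that stretch were counted. 

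Among the apoptosome genes, Cycs, which encodes cytochrome c, rose after oxyhemoglobin. In NC its levels were 18.2, 19.8 and 28.0 CPM at control, then 34.0, 30.4 and 41.6 after 12 h and 24.3, 40.3 and 43.1 after 24 h. In KD they were 14.3, 18.3 and 20.6 CPM at control, then 33.9, 37.0 and 51.5 after 12 h and 29.6, 36.0 and 53.1 after 24 h. All KD treated libraries lay above the KD controls, as did NC at 12 h, while NC 24 h library 1 lay within the range of the NC controls. Over both lines Cycs rose by 0.94 ± 0.18 at 12 h (adjusted p = 3.75e-04) and by 0.93 ± 0.18 at 24 h (adjusted p = 6.57e-04), close to 1.9 times the control level (1.92 and 1.91). In KD the rise was 1.2 ± 0.26 at 12 h (adjusted p = 0.00186) and 1.15 ± 0.26 at 24 h (adjusted p = 0.00443). The KD call at 24 h was lost without KD 24 h library 3 (0.87, adjusted p = 0.0552) and on log2 TPM with limma (adjusted p = 0.0762 to 0.110). In NC the change was 0.69 ± 0.25 at 12 h (adjusted p = 0.0863) and 0.72 ± 0.25 at 24 h (adjusted p = 0.0969), which missed the threshold. With the library number as a block, the NC changes were 0.70 (adjusted p = 4.45e-04) and 0.71 (adjusted p = 4.81e-04), and without NC 24 h library 1 the 24 h change was 0.91 (adjusted p = 0.0366). The lines' changes were not shown to differ, with interactions of 0.51 ± 0.36 and 0.44 ± 0.36 (adjusted p = 0.999 and 1.00).

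Cycs has near-copies elsewhere in the genome that can share its reads, and its count is uncertain to that extent. Gm10053, annotated as protein coding in GENCODE M21, matched Cycs at 99.9% over 946 bases and had 990 counts against 2870 for Cycs, and 3 processed pseudogenes had 30 counts together. Gm10053 rose over both lines too, by 0.84 ± 0.20 at 12 h (adjusted p = 0.00335) and 0.81 ± 0.20 at 24 h (adjusted p = 0.00642). Summed over Cycs and the 4 near-copies, the level was 29.2 ± 3.43, 49.2 ± 4.40 and 48.2 ± 10.7 CPM (SD, n = 3) in NC at control, 12 h and 24 h. The same sum in KD was 25.4 ± 2.42, 53.6 ± 5.05 and 53.7 ± 13.1 CPM, so treated means were above control means in both lines with the copies counted in. The share of mitochondrially encoded counts, given here because cytochrome c is a mitochondrial protein, was 1.06 to 1.55% in NC at control and 0.605 to 0.970% at 12 h, and 1.27 to 2.37% and 0.918 to 1.33% in KD. At 24 h it was 0.833 to 2.05% in NC and 1.34 to 2.12% in KD. These ranges and that of KD at 12 h overlap those of the controls, while that of NC at 12 h lay below its controls. The part of this share in the Cycs result was not tested.

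Apaf1 and Casp9 did not pass the threshold in any comparison. Apaf1, the scaffold of the apoptosome, ran from 7.09 to 16.0 CPM and changed by -0.23 ± 0.19 at 12 h and -0.14 ± 0.19 at 24 h over both lines (adjusted p = 0.422 and 0.678). At 24 h its levels were 7.60, 9.79 and 8.29 CPM in NC and 9.81, 15.7 and 10.5 in KD, groups just short of overlap, and over all times KD was above NC by 0.33 ± 0.15 (adjusted p = 0.182). Library 2 had the highest Apaf1 of its group in 5 of 6 groups. Casp9, at 97.0 to 153 CPM, was the steadiest of the 3, with changes over both lines of -0.02 ± 0.12 at 12 h (adjusted p = 0.937) and 0.04 ± 0.12 at 24 h (adjusted p = 0.884). Library 2 had the lowest Casp9 in 6 of 6 groups, by 0.29 on the log2 scale.

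**Figure D3:**
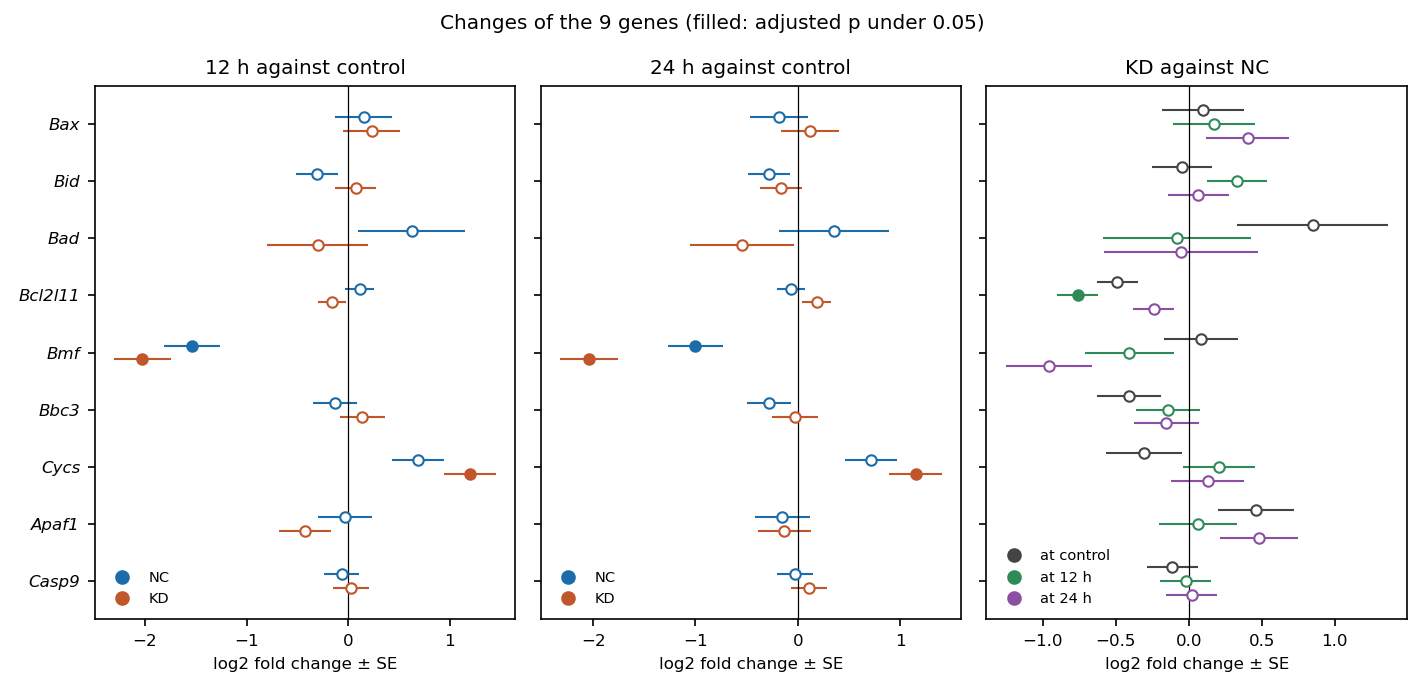
Log2 fold changes ± SE of the 9 genes for 12 h and 24 h against control in each line, and for KD against NC at each time, with filled points past an adjusted p of 0.05. Bmf is filled on the left in both lines at both times, Cycs on the right in KD, and Bcl2l11 on the left for KD against NC at 12 h.

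The number of the 9 genes called was 1 in NC at 12 h, where 12.2% of all 15996 tested genes were called, and 1 in NC at 24 h (7.57% of all genes). In KD 2 were called at 12 h (16% of all genes) and 2 at 24 h (9.59%). Over both lines 2 were called at 12 h (25.2%) and 2 at 24 h (17.7%), which is near the share of all genes. The 2 of 9 in KD at 24 h are a larger share than that of all genes, which was not tested. Between the lines, 1 was called at 12 h (1.6% of all genes) and 1 over all times (9.99%). By edgeR 0 were called between the lines at control (2.06% of all genes) and at 24 h (1.39%), with 1 at an unadjusted p under 0.05 each, and 1 and 0 by DESeq2. From 12 h to 24 h 0 were called in NC (2.76%) and in KD (4.28%), with 0 and 1 at an unadjusted p under 0.05 and 0 by DESeq2. With the block, the count was 2 in NC at 12 h, 2 in NC at 24 h and 1 from 12 h to 24 h in KD, where the same block called 24.7%, 18.9% and 12.3% of all genes. Between the lines the block called 1 at control, 1 at 24 h and 3 over all times (9.35%, 9.0% and 24.4% of all genes). In the interactions 0 were called at 12 h (0.075% of all genes) and at 24 h (0.0313%), with 0 and 1 at an unadjusted p under 0.05 and 0 by DESeq2. The median change of the 9 genes over both lines was -0.019 at 12 h and -0.094 at 24 h on the log2 scale, against -0.00096 and -0.0067 over all tested genes.

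The level of Bax relative to pro-survival genes was compared within each library as a log2 ratio of deposited TPM, whose differences do not depend on gene length. Bax relative to Bcl2l1 was 2.34 ± 0.609 (SD, n = 3) in NC at control, 1.60 ± 0.399 at 12 h and 1.55 ± 0.597 at 24 h, and 2.59 ± 0.587, 1.5 ± 0.426 and 1.76 ± 0.422 in KD. Treated libraries were lower by 0.86 than controls, a mean difference of -0.86 (two-sided exact permutation test within lines, p = 0.00128, adjusted over the 4 ratio tests p = 0.00510). With libraries of the same number kept together, the mean of the 12 h and 24 h ratios was set against the control of that number. An exact sign-flip test of these differences, with 64 arrangements, gave p = 0.03125, the smallest that test can give, and an adjusted p of 0.0625. Bcl2l1 rose in both lines in the main fit while Bax did not pass its test. The NC call of Bcl2l1 at 24 h was lost on log2 TPM with limma (adjusted p = 0.381 to 0.484). It was also lost in edgeR without the count filter (0.0947) and with the 2 groups alone (0.109). At 12 h the NC call was lost on unfiltered log2(TPM + 1) with limma (0.0539). Relative to Bcl2, Bax was at -0.0028 ± 0.665, 0.13 ± 0.332 and -0.48 ± 0.416 in NC and at 0.29 ± 0.503, 0.32 ± 0.193 and 0.06 ± 0.190 in KD. The treated libraries differed from controls by -0.14 in this ratio (exact permutation p = 0.542, adjusted p = 0.592). KD differed from NC by 0.34 (exact permutation p = 0.0903, adjusted p = 0.181), and by 0.47 without NC control library 1 (adjusted p = 0.0270, exact permutation test). With any other single library left out, the difference was 0.25 to 0.42 and missed the threshold (adjusted p = 0.0875 to 0.4515, same test). For Bax relative to Bcl2l1 the difference of KD from NC was 0.12 (exact permutation p = 0.592).

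Of 35 other genes of the pathway, 28 were expressed highly enough to be tested. Among those that were not are Bak1, Bok, Bik, Hrk, Pmaip1 and Bcl2a1a, with 0 to 64 counts each over all libraries. Over both lines 6 of the 28 rose and 2 fell at 12 h, where 13% of all tested genes were higher and 12.3% lower. At 24 h 6 rose and 1 fell, against 9.99% and 7.76% of all genes. Of the 6 tested pro-survival genes 3 rose at 12 h and 4 at 24 h. Bcl2 (0.34 ± 0.11) and Bcl2a1b (0.79 ± 0.27), named after their values were seen, both lost their 24 h call on log2 TPM with limma and without NC control library 1, NC 24 h library 3, KD control library 1 or 2, or KD 24 h library 1 or 3. Bcl2a1d, which encodes a pro-survival A1 protein, rose by 2.91 ± 0.15 at 12 h (adjusted p = 8.09e-13) and 1.34 ± 0.14 at 24 h (adjusted p = 3.44e-07). Its reads can be shared with its near-identical paralogs Bcl2a1a and Bcl2a1b, so the split among them is uncertain. Bcl2l1 rose by 1.13 ± 0.13 at 12 h (adjusted p = 3.00e-07) and 0.79 ± 0.13 at 24 h (adjusted p = 6.38e-05). Mdm2, which encodes the ubiquitin ligase of p53, rose by 0.91 ± 0.14 at 12 h (adjusted p = 3.73e-05) and 0.65 ± 0.14 at 24 h (adjusted p = 0.00218; 0.101 to 0.148 on log2 TPM with limma). Ddit3, which encodes the stress factor CHOP, rose by 0.83 ± 0.13 at 12 h (adjusted p = 4.65e-05).

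The genes that fell, named here after their values were seen, were Parp1, which encodes a DNA repair enzyme cut by executioner caspases, and Trp53, which encodes p53, at 12 h, and Dffb, which encodes a caspase-activated DNase, at 24 h. Parp1 changed by -0.59 ± 0.14 (adjusted p = 0.00272) and Trp53 by -0.50 ± 0.14 (adjusted p = 0.00879; 0.0532 on unfiltered log2(TPM + 1) with limma). Dffb changed by -0.81 ± 0.28 (adjusted p = 0.0468), a call lost without NC control library 2 or 3, NC 24 h library 1 or 2, KD control library 1 or 2, or KD 24 h library 2 or 3. The 7 mitochondrial factors tested, among them Diablo, Htra2, Endog and Vdac1, did not pass the threshold over both lines, where Vdac2, a pore of the outer membrane, was nearest at 0.26 ± 0.10 at 12 h (adjusted p = 0.0722). With the block Endog (-0.53, adjusted p = 1.56e-04) and Vdac2 (0.26, adjusted p = 0.00548) passed at 12 h, and Hccs (0.64, adjusted p = 0.0203) and Htra2 (-0.37, adjusted p = 0.0202) at 24 h.

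The counts of the other pathway genes varied with the fit and with single libraries. Over both lines the block gave 10 up and 4 down at 12 h and 8 up and 5 down at 24 h, against 19.3% of all genes higher and 18.2% lower, and 16.7% and 14.2%, under the same block. The 24 h counts were 3 up and 1 down without KD 24 h library 3, 3 and 3 without NC 24 h library 3, and 2 and 2 on log2(TPM + 1) with limma. Within NC 6 rose and 0 fell by edgeR at 12 h, with 1 lower at an unadjusted p under 0.05 and 0 by DESeq2, against 6.69% of all genes higher and 5.55% lower. With the block 8 rose and 3 fell (13.7% and 11% of all genes). The 6 became 3 without NC control library 3 or NC 12 h library 2. Without the 6 libraries numbered 2, Mdm2, Ddit3, Birc3 and Bcl2a1b lost their calls (adjusted p = 0.0517 to 0.128). On unfiltered log2(TPM + 1) with limma, these genes and Bcl2l1 lost them (0.0539 to 0.248). At 24 h in NC, Bcl2l1 and Bcl2a1d rose and 0 fell by edgeR, with 3 lower at an unadjusted p under 0.05 and 0 by DESeq2, where 4.66% of all genes were higher and 2.91% lower. With the block 5 rose and 2 fell (10.6% and 8.3% of all genes), and 1 rose without the block and without NC control library 1 or 2 or NC 24 h library 2 or 3. In KD 6 rose at 12 h (7.93% of all genes) and 2 fell (8.06% of all genes), Parp1 and Trp53, the latter not without KD control library 1 or 3, NC 12 h library 1 or any KD 12 h library. At 24 h in KD, Bcl2l1, Bcl2a1d and Mdm2 rose (5.5% of all genes), and with the block 5 rose and 3 fell (12.1% and 9.39% of all genes). On log2 TPM with limma 1 rose there, with adjusted p of 0.0636 to 0.0994 for Bcl2l1 and 0.120 to 0.162 for Mdm2.

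Bcl2a1d and Ddit3 were the 2 pathway genes that were lower at 24 h than at 12 h, where 1.13% of all genes were lower in NC and 1.46% in KD. Bcl2a1d fell by 1.31 ± 0.19 in NC (adjusted p = 2.79e-04) and by 1.82 ± 0.20 in KD (adjusted p = 3.99e-06). Ddit3 fell by 0.84 ± 0.19 in NC (adjusted p = 0.0143) and by 1.11 ± 0.19 in KD (adjusted p = 8.83e-04), and its NC call was lost without NC 12 h library 1 or 2 or NC 24 h library 3. With the block 2 rose and 5 fell in KD (6.85% and 5.48% of all genes). Both genes were also lower in KD than in NC over all times, by -0.70 ± 0.11 for Bcl2a1d (adjusted p = 2.54e-04) and -0.67 ± 0.11 for Ddit3 (adjusted p = 3.04e-04), as was the pro-survival gene Mcl1 (-0.35 ± 0.09, adjusted p = 0.0114; 0.176 to 0.241 on log2 TPM with limma). These are 3 of 28 genes, against 5.98% of all genes lower and 4.01% higher in KD.

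**Figure D4:**
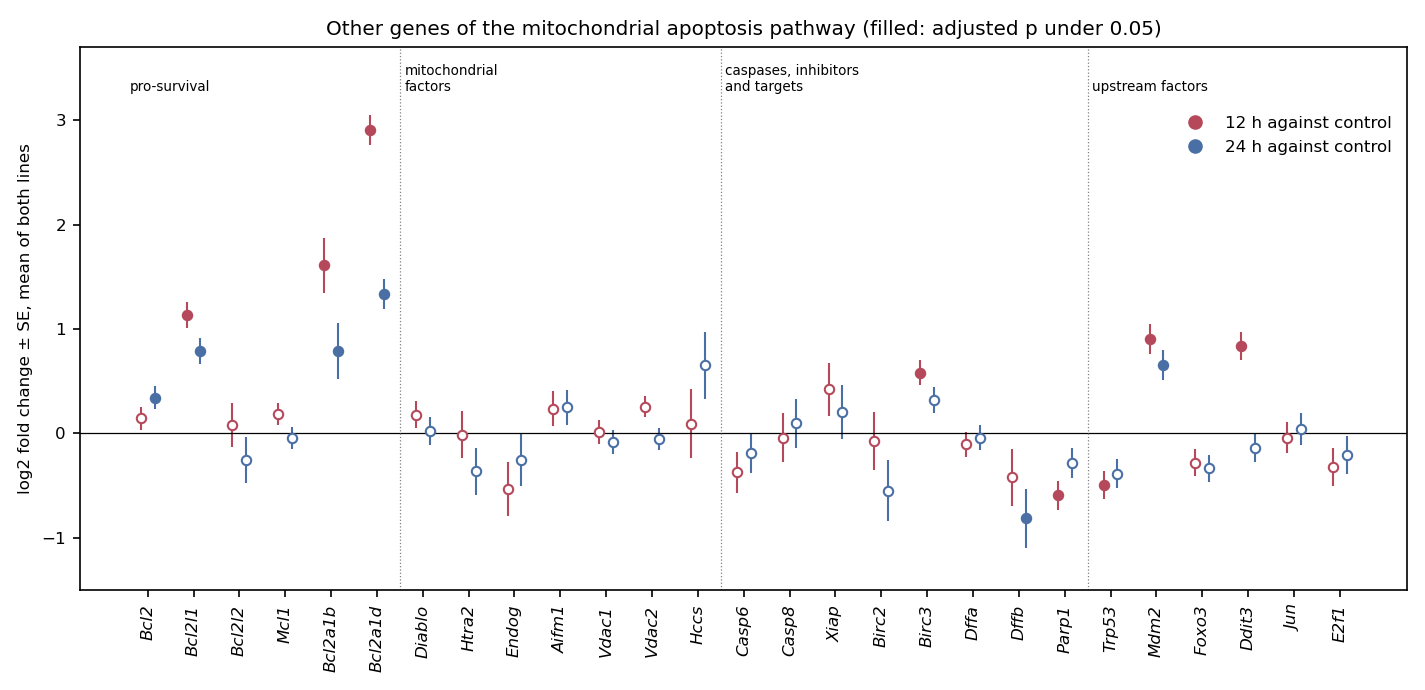
Log2 fold changes ± SE, averaged over both lines, of other tested pathway genes at 12 h and 24 h against control, ordered by role, with filled points past an adjusted p of 0.05. Bcl2a1d at 12 h stands highest at 2.91, and the 7 mitochondrial factors are open.

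The 9 genes did not move as a block across the 18 libraries. Bmf and Cycs had the strongest relation among the 36 pairs, a Pearson correlation of -0.79 of log2 CPM, and Bax and Apaf1 had -0.40. These libraries share treatment groups and library numbers, so the values describe this set and carry no test. Among 10812 genes with a mean of at least 5 CPM, those most like Bmf across the libraries were Dchs1 (r = 0.95), Lmo2 (0.94) and Zfp395 (0.94). Most like Cycs were Eif4e (0.93), Cnih1 (0.92) and Rab5a (0.91), and most like Bcl2l11 were Fos (0.92), Prkar2a (0.87) and Gm6225 (0.87).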

How the data were processed

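RNA from 18 libraries of BV2 cells was counted per gene. The submitters' processing notes name GRCm38, HISAT2 2.2.0, bcl2fastq, DESeq2 and featureCounts, without settings. The authors deposited whole-number counts, not normalized, and a TPM table; dividing counts by the listed length and rescaling gave the authors' TPM back to within 4.89e-05. Titles gave the group and number of each library. Positions, lengths and overlaps came from GENCODE M21, where 55141 of 55487 gene IDs were found, and promoters and their build from RefSeq.

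Counts were tested with edgeR 4.0.16 (R 4.3.3, limma 3.58.1): quasi-likelihood test, TMM factors, filterByExpr with a minimum count of 10, a mean for each group, a spread estimated from all 18 libraries together, robust fitting, and Benjamini-Hochberg adjustment over 15996 genes in each of 14 comparisons, with a threshold of 0.05. The procedure was tested on simulated data. Log2 ratios of TPM were tested by exact permutation and, with same-numbered libraries kept together, by exact sign flips of their differences. Of 114 symbols on more than 1 gene ID, Ddit3 was taken as the ID with counts. Libraries of a group differed by more than counting error (chi-square over its degrees of freedom, 4.50 to 17.3).

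The members and lists were chosen with earlier results of these data known. All 9 members and Bak1 are named, with up to 4 pathway genes per comparison by lowest adjusted p among those past the threshold, and the 3 likest genes of each changed member; pathway genes named beyond these were chosen after their values were seen. Some listed genes are counted but not reported here. The TPM by merged exon length was added after the data were seen. Alternatives were RLE factors, no filter, DESeq2 1.42.0, limma on log2(TPM + 1) or log2(TPM + 0.1), the 2 groups alone, a block on library number, each library left out and, added after the data were seen, the 6 libraries numbered 2 left out. Same-numbered libraries deviated from their group means together in the 6 comparisons of times and in KD against NC at 12 h (lowest correlation 0.108), and the blocked value is given there where it changes a call. The minimum set for this was a correlation of 0.1. In KD against NC at control and 24 h the lowest correlation was 0.0703 and 0.0946, both for library 3. Libraries 1 and 2 had 0.166 to 0.444 there, so blocked values for the lines are given with this limit.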

Additional observations from a re-analysis of the deposited data

How the results depend on the processing

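Over all alternatives, 3113 of the members' changes kept their direction and their side of the threshold, 13 lost and 9 gained a call, and 163 that were not called changed sign; 0 called changes did. Bad and Apaf1 have no value on TPM filtered at a mean of 1, which both miss. The block on library number, in comparisons whose numbers were not shown to pair the libraries, called Bcl2l11 at control (-0.49, adjusted p = 4.61e-04), Bmf at 24 h (-0.96, adjusted p = 0.0224) and, over all times, Bcl2l11, Bax (0.23, adjusted p = 0.0330) and Bmf (-0.42, adjusted p = 0.0407), so the number of members called between the lines was 1 at control, 1 at 24 h and 3 over all times. In the paired comparisons the block gave 2 in NC at 12 h, 2 in NC at 24 h and 1 from 12 h to 24 h in KD. Without the libraries numbered 2 the number was 0 in NC at 24 h. On TPM with limma it was 1 in KD at 24 h and 0 for KD against NC at 12 h under each of the 3 settings, with the 2 groups alone 0 for KD against NC at 12 h, and with DESeq2 1 for KD against NC at control. Leaving out 1 library gave 1 to 2 in KD at 24 h, 0 to 2 in NC at 24 h and 0 to 1 for KD against NC at 12 h. The Bax to Bcl2 ratio differed between lines by 0.34 under the block (adjusted p = 0.0156) and by 0.25 to 0.47 with 1 library left out. Between treated and control it ran from -0.26 to 0.056, the last without NC control library 1. For the Bax to Bcl2l1 ratio between treated and control the call was lost under the block, which leaves the difference of -0.86 as it is by construction. The adjusted p there was 0.0625, from the smallest p that the sign-flip test with 64 arrangements can give (0.03125). The difference ran from -0.99 to -0.69 with 1 library left out. The causes were not tested.

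Counts over all genes moved by over 1.5 times in places. With the block the count went from 1958 to 3948 in NC at 12 h, 1211 to 3023 at 24 h and 441 to 1841 between them, from 2558 to 4600, 1534 to 3433 and 684 to 1971 in KD, from 2839 to 4943 over both lines at 24 h, from 330 to 1496, 256 to 1737, 223 to 1440 and 1598 to 3902 for KD against NC at control, 12 h, 24 h and over all times, and from 12 to 331 and 5 to 193 for the interactions. Other alternatives that moved a count that far gave 748 and 802 in NC at 24 h, 195 to 287 from 12 h to 24 h in NC, 1012 and 1019 in KD at 24 h, 428 to 449 from 12 h to 24 h in KD, 157 to 216 for the lines at control, 101 to 388 at 12 h, 41 to 410 at 24 h and 980 to 1047 over all times, and 2 to 51 and 1 to 38 for the interactions. On TPM the share of called genes that were higher went from 37.0 to 51.0% at control, from 31.3 to 56.6% at 12 h, from 33.6 to 71.8% at 24 h and from 40.2 to 65.4% over all times for KD against NC, and from 57.4 to 46.8% for KD at 24 h. TPM scaling moved the median of all genes by up to -0.21 on the log2 scale, from 12 h to 24 h in KD. Bad, at 4 to 18 counts per library, is the member most limited by depth.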
